A study of Mus musculus with 6 samples.

Results

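The 9 genes described here encode the Slit ligands (Slit1, Slit2 and Slit3), the Robo receptors (Robo1, Robo2 and Robo3) and 3 other proteins of commissural axon guidance (Dcc, Draxin and Cntn2). They were chosen by name and found by symbol among the 55400 genes of the deposited table. All 9 are listed there. Polyadenylated RNA had been sequenced from motor neuron progenitors grown from C57BL/6 mouse embryonic stem cells of wild-type genotype and harvested on day 4, in 3 libraries labelled Setd5sh and 3 labelled control. Both groups received 1 µM retinoic acid and 0.5 µM SAG, a Smoothened agonist, and both are described with the same 1 µg/mL doxycycline for 36 h. The label Setd5sh reads as a short hairpin RNA against Setd5, a SET domain protein, but the labels do not spell this out, and no source used here states what the control cells carried. Stem cells had been kept on mouse embryonic fibroblasts, so some feeder RNA could be present. The labels do not tell whether a group's 3 libraries are separate cultures. The p-values therefore cover the variation among these libraries only, and that may be technical.

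As background, axons that cross the ventral midline of the spinal cord are drawn to the floor plate by netrin acting on Dcc and are then driven away from it by Slit proteins acting on Robo1 and Robo2. Robo3 is made by commissural neurons before they cross and keeps Slit repulsion low. Draxin is a secreted repellent that binds netrin receptors, and Cntn2 (also called TAG-1) is a membrane-anchored adhesion protein of the immunoglobulin superfamily found on growing commissural and motor axons. Motor neurons make Slits and Robos too, and use them to keep their cell bodies and axons off the midline.

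Draxin and Cntn2 were the members in which every Setd5sh library stood above every control library. The start regions of these 2 genes and of Slit3, the next member by p-value, are shown because these 3 had the smallest p-values among the members. Each runs 5′ to 3′ on the gene's own strand, from 250 bases before to 50 bases after the RefSeq start, on GRCm38.p6, which is the same assembly as the mm10 build the files use. Capitals mark matches to any of the 5 motifs searched for on both strands. Slit1 has no entry among the promoter sequences used here.
Draxin: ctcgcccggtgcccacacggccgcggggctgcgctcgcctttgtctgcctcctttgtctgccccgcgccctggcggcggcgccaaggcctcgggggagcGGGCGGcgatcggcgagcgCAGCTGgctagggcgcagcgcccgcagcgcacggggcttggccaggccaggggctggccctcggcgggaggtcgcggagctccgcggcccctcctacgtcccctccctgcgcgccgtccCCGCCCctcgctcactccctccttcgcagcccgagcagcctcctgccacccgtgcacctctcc
Cntn2: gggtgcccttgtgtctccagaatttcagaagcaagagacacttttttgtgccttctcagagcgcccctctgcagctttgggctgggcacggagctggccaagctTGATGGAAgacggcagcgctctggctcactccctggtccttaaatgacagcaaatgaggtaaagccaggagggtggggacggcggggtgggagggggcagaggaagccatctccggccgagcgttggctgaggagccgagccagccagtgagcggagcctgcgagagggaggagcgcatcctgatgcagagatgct
Slit3: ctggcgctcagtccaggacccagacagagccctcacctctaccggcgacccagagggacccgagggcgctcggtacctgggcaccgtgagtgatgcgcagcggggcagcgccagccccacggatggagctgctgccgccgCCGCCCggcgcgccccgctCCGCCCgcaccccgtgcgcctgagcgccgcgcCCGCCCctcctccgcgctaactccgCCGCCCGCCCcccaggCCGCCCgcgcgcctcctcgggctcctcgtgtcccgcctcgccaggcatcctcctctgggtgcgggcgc
The Draxin window lies at chr4:148130649-148130948 on the minus strand, the Cntn2 window at chr1:132542891-132543190 on the minus strand and the Slit3 window at chr11:35121206-35121505 on the plus strand. The GENCODE M21 annotation begins Cntn2 further upstream, at 132543256, and Slit3 at 35121224. By that annotation the whole Cntn2 window and most of the Slit3 window lie inside the gene, downstream of its start. Forms of the E-box, read by basic helix-loop-helix proteins, were searched as CAGCTG, as CAGATG and as CACGTG. The GC box was searched as GGGCGG. The fifth motif was TGATGNAA. Draxin held 1 CAGCTG, a motif present in 16.3% of 32851 promoter windows of this length, and 2 GC boxes. Cntn2 held 1 TGATGNAA, at position -146 from the start, a motif present in 4.0% of the windows, and no other match. Slit3 held 6 GC boxes, of which a neighbouring pair overlap, and no other match. A GC box was present in 35.7% of the windows, CAGATG in 17.2% and CACGTG in 7.2%. GC content was 78.0% in the Draxin window, 61.3% in the Cntn2 window and 78.3% in the Slit3 window. These matches describe the letters only, and no binding was measured.

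The 6 libraries held 19639303 to 27660851 counts in the Setd5sh group and 19871993 to 32046466 counts in the control group. Setd5, the gene named in the label, stood at 14.4, 13.5 and 12.9 FPKM in Setd5sh replicates 1, 2 and 3, against 22.2, 18.8 and 16.7 FPKM in control replicates 1, 2 and 3 (FPKM is the count scaled by exonic length and library size). The difference on the log2 scale was -0.51 (SE 0.16), with an edgeR unadjusted p of 0.0143 and an adjusted p = 0.995. Control replicate 1 stood apart as the deepest library and listed 26505 genes with at least 1 count, against 20979 to 23637 in the other libraries. It was also the library whose counts differed most from the rest, as given with the processing below. All 8 neural progenitor markers reached a mean of 1 FPKM, and their sum was 495 to 589 FPKM in Setd5sh and 415 to 474 FPKM in control libraries, with no overlap. No single marker of the 8 had every Setd5sh library above every control library. Sox3, Olig2, Vim, Nes and Nkx6-1 had higher means in Setd5sh, with overlapping groups. Sox2 averaged 74.0 FPKM in Setd5sh and 74.6 FPKM in control libraries, and Pax6 6.73 and 6.69 FPKM. Sox1 was lower in every Setd5sh library, with means of 24.7 and 27.7 FPKM. Of 9 motor neuron markers 3 reached a mean of 1 FPKM, with summed levels of 44.9 to 55.5 FPKM in Setd5sh and 46.6 to 55.4 FPKM in control libraries. Fibroblast feeder markers summed to 7.76 to 9.60 FPKM in Setd5sh and 5.78 to 9.03 FPKM in control libraries, with Postn and Lum under 0.1 FPKM throughout. Mesoderm and endoderm markers summed to 9.49 to 14.7 FPKM and 10.4 to 16.8 FPKM, and neural crest markers to 1.68 to 2.68 FPKM and 1.73 to 3.22 FPKM, in Setd5sh and control libraries in that order. Pluripotency markers summed to between 9.53 and 63.1 FPKM in Setd5sh and between 19.6 and 84.7 FPKM in control libraries, and both maxima were in the libraries numbered 2.

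The members spanned a wide range of levels, with 2 Slit ligands at the top and Robo3 near 0. In FPKM, which is per length and so may be compared between genes, the order of the means over all 6 libraries was Slit3 at 6.63, Slit1 at 5.97, Draxin at 2.84, Cntn2 at 1.59, Robo2 at 1.55, Robo1 at 1.28, Slit2 at 0.458, Dcc at 0.0867 and Robo3 at 0.0167 FPKM. Neighbours in this order from Slit3 down to Robo1 had overlapping ranges over the libraries, and Slit3 was above Slit1 in 4 of 6 libraries. Within each library the next 2 steps held, with Slit1 above Draxin and Draxin above Cntn2 in all 6. Cntn2 was above Robo2 in 3 of 6 and Robo2 above Robo1 in 4 of 6. Slit2 was below Robo1, Dcc below Slit2 and Robo3 below Dcc in all 6 libraries, with no overlap of ranges. Slit3 and Slit1 stood at the 45.9 and 42.5 percentile of the 12199 genes with a mean of at least 1 FPKM, and Robo1 at the 5.20 percentile. The middle of the order depended on the length used. The table divides by the whole exonic length of a gene, 16983 bases for Robo2 and 16511 for Robo1, while their longest annotated transcripts in GENCODE M21 have 8591 and 7563 bases. Per longest transcript, an alternative chosen after seeing the data, Robo2 averaged 3.06 and Robo1 2.80 on the FPKM scale, with Draxin at 2.84 between them and Cntn2 at 2.02. Slit2, whose exonic length is 25433 bases against 9960 for its longest transcript, then stood at 1.17.

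**Figure D1:**
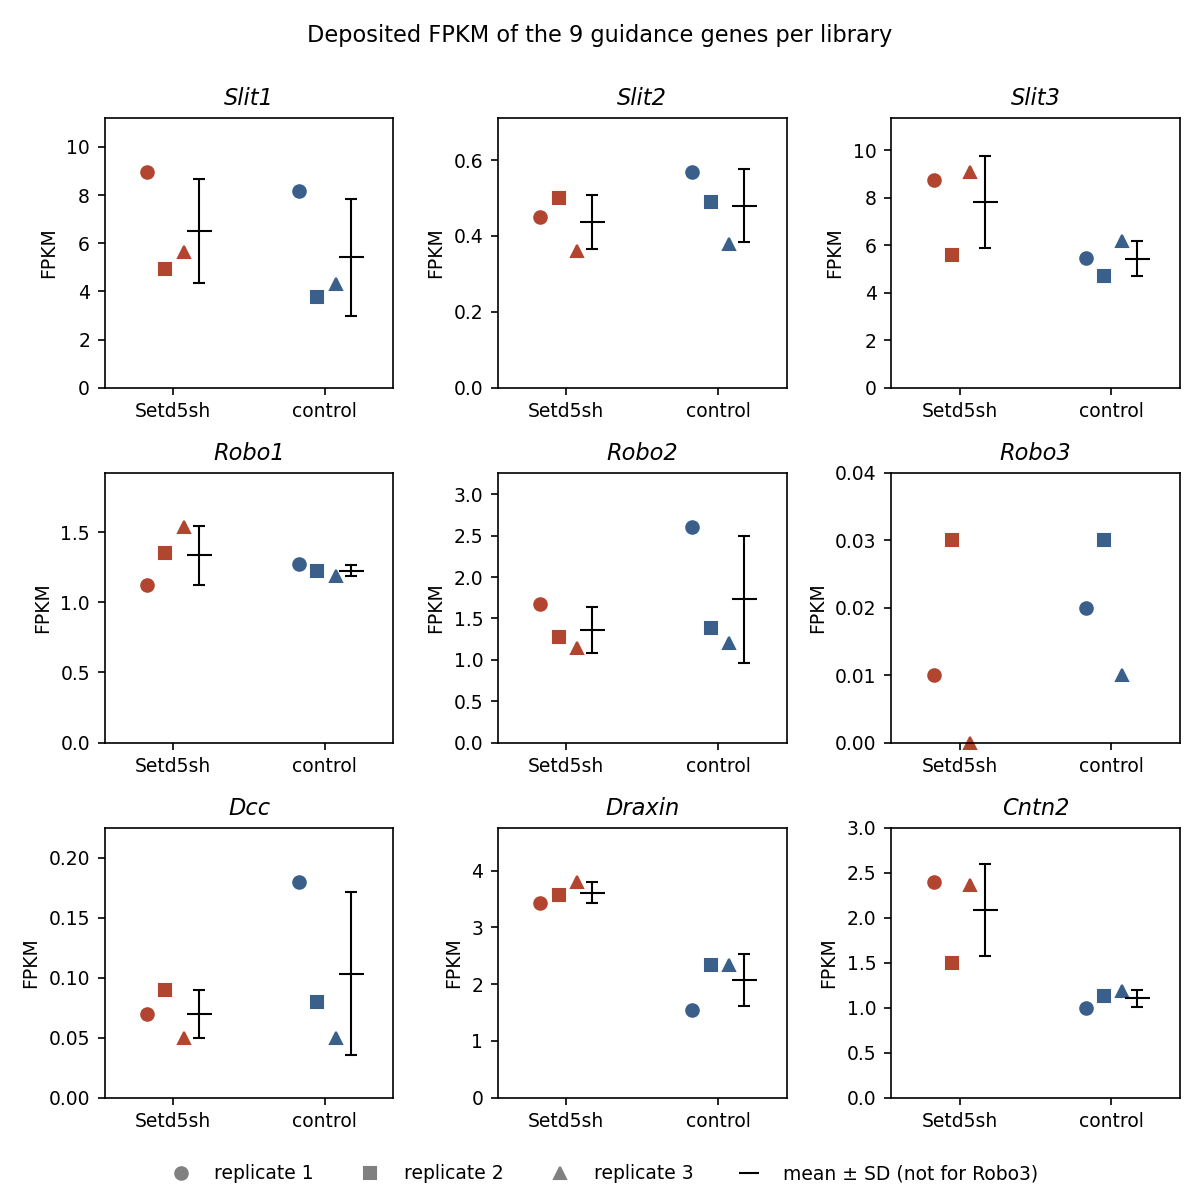
Deposited FPKM (vertical axes, linear, each from 0) of the 9 genes in the 3 Setd5sh and 3 control libraries, with symbols for the replicate number and bars for mean ± SD over 3 libraries (not drawn for Robo3). Draxin runs from 3.44 to 3.81 FPKM in Setd5sh and from 1.54 to 2.34 FPKM in control libraries, and Cntn2 is likewise separated, while the other members overlap.

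No gene passed the edgeR quasi-likelihood test with Benjamini-Hochberg adjustment over the 12199 genes with a mean of at least 1 FPKM, and so none of the members did. The share called was 0% in that fit and 0% over the 15805 genes kept by edgeR's filterByExpr, a count-based filter. At an unadjusted p under 0.05, edgeR had 75 genes with positive and 74 with negative log2 fold changes (0.615% and 0.607%, together 1.22%, of those tested). Over the filterByExpr genes these shares were 0.683% and 1.07%, together 1.75%, and neither Slit2 nor Dcc was among them. DESeq2 and limma on log2(FPKM + 1) also called 0 genes. Of the 9 members, 6 met the FPKM minimum, Slit2 and Dcc met only filterByExpr, and Robo3 met neither. Among the 6, Draxin and Cntn2 had an unadjusted p under 0.05, and they ranked 5 and 6 by p among the 12199 genes. Such p-values were fewer here than the fraction of 0.05 expected of genes with no difference, so the p-values of this fit ran high. The cause was not tested. The ranks alone do not mark a change either, since some genes rank first in any fit. Groups did not overlap in FPKM in 2 of the 9 members, both with Setd5sh above control, where 3.07% of the genes with a mean of at least 1 FPKM had Setd5sh above and 2.14% Setd5sh below control. Over the filterByExpr genes these were 2.9% and 2.78%.

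**Figure D2:**
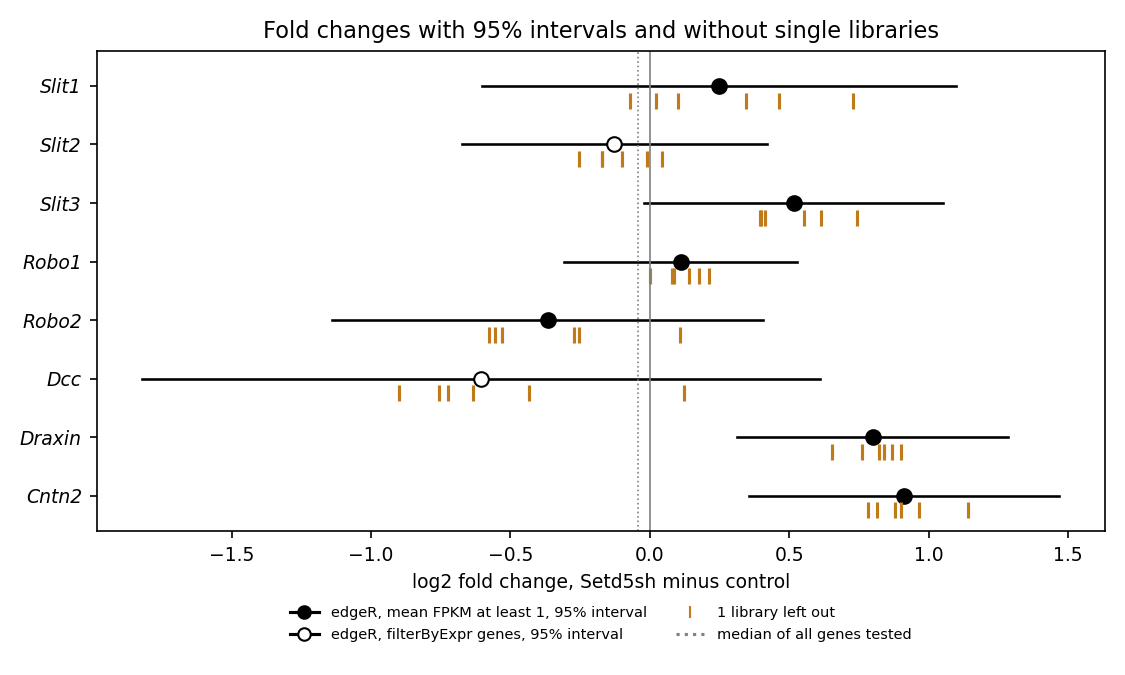
Log2 fold change, Setd5sh minus control (horizontal axis), of the 8 members that could be fitted, with edgeR's 95% interval (lines; open circles are the 2 members under the FPKM minimum) and the values without each of the 6 libraries (ticks). The intervals of Draxin, 0.31 to 1.29, and Cntn2, 0.36 to 1.47, lie above 0, and single libraries move Slit1, Slit2, Robo1, Robo2 and Dcc to the other side of 0.

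Slit3, a secreted ligand of the Robo receptors (ENSMUSG00000056427, chromosome 11, from 35121224 to 35708507, plus strand), stood at 8.76, 5.61 and 9.11 FPKM in Setd5sh replicates 1, 2 and 3, against 5.45, 4.69 and 6.17 FPKM in control replicates 1, 2 and 3. Setd5sh replicates 1 and 3 were above every control library, and Setd5sh replicate 2 lay below control replicate 3. On the log2 scale the groups differed by 0.52 (SE 0.23, 95% interval -0.02 to 1.05), and edgeR gave an unadjusted p of 0.0574 and an adjusted p = 0.995. The replicate numbers are shared by both groups, and within same-numbered libraries Setd5sh stood at 161%, 120% and 148% of control.

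Slit1, the ligand most restricted to the nervous system (ENSMUSG00000025020, chromosome 19, from 41600257 to 41743665, minus strand), stood at 8.98, 4.93 and 5.65 FPKM in Setd5sh replicates 1, 2 and 3, against 8.18, 3.76 and 4.29 FPKM in control replicates 1, 2 and 3. The libraries numbered 1 were the highest of their groups, and that gap was wider than the gap between the groups. Within same-numbered libraries Setd5sh stood at 110%, 131% and 132% of the control level. Its fold change on the log2 scale was 0.25 (SE 0.37, 95% interval -0.60 to 1.10, edgeR adjusted p = 0.995). With the replicate number as a block it was 0.30 (SE 0.15, unadjusted p = 0.103 in edgeR). Without control replicate 1 it was 0.73, and without Setd5sh replicate 1 it was -0.07.

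Slit2, the floor plate ligand best known from commissural axons and also a product of motor neurons (ENSMUSG00000031558, chromosome 5, from 47983138 to 48307733, plus strand), stood at 0.45, 0.50 and 0.36 FPKM in Setd5sh replicates 1, 2 and 3, against 0.57, 0.49 and 0.38 FPKM in control replicates 1, 2 and 3. The groups overlapped. These low values rest on 768 counts over the Setd5sh libraries and 998 over the control libraries, since the gene is long. The log2 fold change from the filterByExpr fit was -0.13 (SE 0.24, 95% interval -0.68 to 0.42, edgeR adjusted p = 0.986). It was 0.05 without control replicate 1, and 0.09 with the replicate block and GC and length trends removed.

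The summed Slit level was 18.2, 11.04 and 15.1 FPKM in Setd5sh replicates 1, 2 and 3, against 14.2, 8.94 and 10.8 FPKM in control replicates 1, 2 and 3. Slit3 made up 53.1% ± 6.36 of it in Setd5sh and 49.3% ± 9.68 in control libraries, and Slit1 43.8% ± 6.05 and 46.4% ± 9.77 (SD, n = 3 each). These shares differed between the groups by less than 1 SD. Slit2 held 3.13% ± 1.21 in Setd5sh and 4.33% ± 1.03 in control libraries, or 6.90% and 9.47% per longest transcript. The ratio of summed Slit to summed Robo FPKM was 6.50, 4.15 and 5.64 in Setd5sh replicates 1, 2 and 3, against 3.64, 3.40 and 4.52 in control replicates 1, 2 and 3. Setd5sh replicate 2 lay below control replicate 3, so the groups overlapped in this ratio. Its size depends on the length used, and it would be lower per longest transcript. There the means over all 6 libraries went from 1.55 to 3.06 for Robo2 and from 1.28 to 2.80 for Robo1. Those of Slit3 went from 6.63 to 7.70 and those of Slit1 from 5.97 to 6.23.

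**Figure D3:**
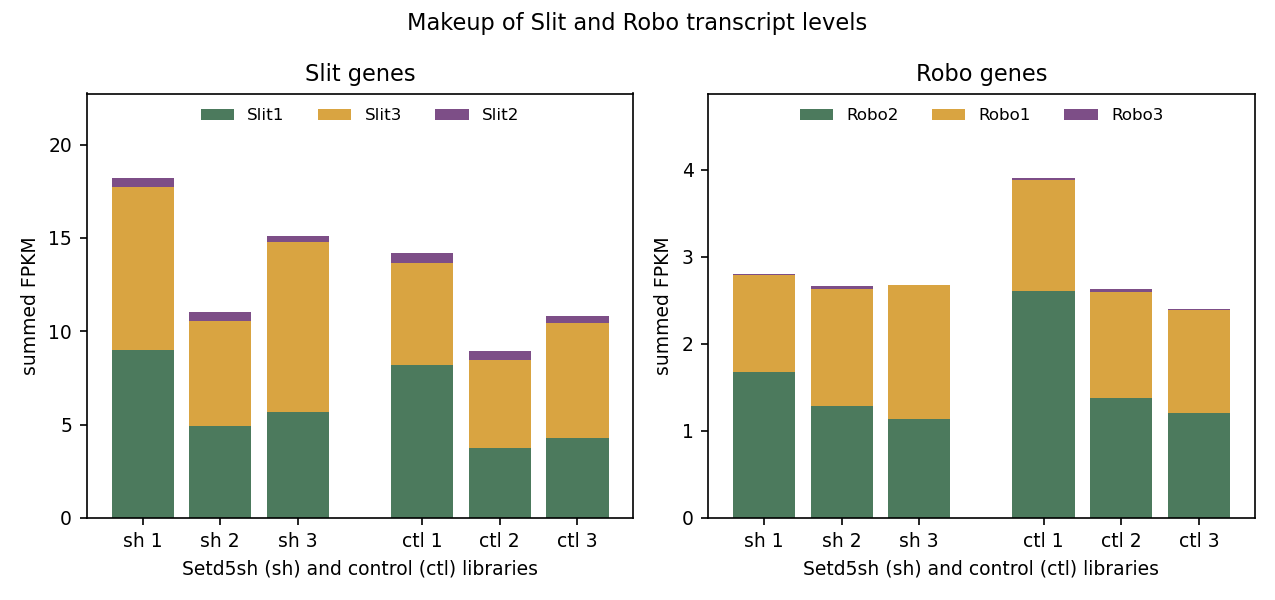
Summed FPKM (vertical axes, from 0, of different height in the 2 panels) of the 3 Slit genes and of the 3 Robo genes in each library, split by gene, with Setd5sh (sh) left of control (ctl). Slit1 and Slit3 hold nearly all of the Slit level in each library, and Robo1 and Robo2 nearly all of the Robo level, which is highest in control replicate 1 at 3.90 FPKM.

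Robo1, a Slit receptor (ENSMUSG00000022883, chromosome 16, from 72308306 to 73046095, plus strand), stood at 1.12, 1.35 and 1.54 FPKM in Setd5sh replicates 1, 2 and 3, against 1.27, 1.22 and 1.19 FPKM in control replicates 1, 2 and 3. The control values fell inside the Setd5sh range. Its log2 fold change was 0.11 (SE 0.18, 95% interval -0.31 to 0.53, edgeR adjusted p = 0.995), and it was -0.0002 without Setd5sh replicate 3.

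Robo2, the other main Slit receptor (ENSMUSG00000052516, chromosome 16, from 73891839 to 74411825, minus strand), stood at 1.67, 1.28 and 1.14 FPKM in Setd5sh replicates 1, 2 and 3, against 2.61, 1.38 and 1.20 FPKM in control replicates 1, 2 and 3. Control replicate 1 was the one high library, and the other 5 lay between 1.14 and 1.67 FPKM. The log2 fold change was -0.37 (SE 0.33, 95% interval -1.14 to 0.40, edgeR adjusted p = 0.995). Without control replicate 1 it turned to 0.11 (SE 0.20), and with the replicate block and GC and length trends removed it was -0.01 (SE 0.16). Robo2 held 50.1% ± 8.72 of the summed Robo level in Setd5sh and 56.5% ± 9.14 in control libraries, and Robo1 49.4% ± 8.81 and 42.9% ± 9.05 (SD, n = 3 each).

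Robo3 (ENSMUSG00000032128, chromosome 9, from 37415669 to 37433246, minus strand) had 2, 5 and 0 counts in Setd5sh replicates 1, 2 and 3, against 5, 5 and 1 counts in control replicates 1, 2 and 3. These counts lie near the 3 that a count of 0 allows, which for this gene is 0.0137 to 0.0223 FPKM depending on the library, for counting error only. No difference was detectable at this depth. Of 10 listed commissural neuron markers, Atoh1, Barhl1, Barhl2, Lhx5, Lhx9, Evx1 and Evx2 were also under 0.1 FPKM in each of the 6 libraries. Lhx2 ranged from 0.22 to 0.52 FPKM and Pou4f1 from 0.29 to 0.53 FPKM over the libraries, and Lhx1 alone reached a mean of 1 FPKM. The summed level of those 10 was 4.55 to 6.26 FPKM in Setd5sh and 3.78 to 6.92 FPKM in control libraries.

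Dcc, the netrin receptor that mediates attraction (ENSMUSG00000060534, chromosome 18, from 71253634 to 72351069, minus strand), had 19, 31 and 13 counts in Setd5sh replicates 1, 2 and 3, against 77, 27 and 14 counts in control replicates 1, 2 and 3. In FPKM this was 0.07, 0.09 and 0.05 against 0.18, 0.08 and 0.05. Control replicate 1 again stood alone, and the other 5 libraries overlapped. The log2 fold change from the filterByExpr fit was -0.61 (SE 0.53, 95% interval -1.82 to 0.61, edgeR adjusted p = 0.986), and it was 0.12 without control replicate 1.

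Draxin (ENSMUSG00000029005, chromosome 4, from 148098437 to 148130698, minus strand) stood at 3.44, 3.58 and 3.81 FPKM in Setd5sh replicates 1, 2 and 3, against 1.54, 2.34 and 2.34 FPKM in control replicates 1, 2 and 3. The Setd5sh values lay close together and above every control value. The mean was 3.61 ± 0.187 FPKM in Setd5sh and 2.07 ± 0.462 FPKM in control libraries (SD, n = 3 each), a ratio of 174%. This was 0.80 on the log2 scale (SE 0.21). The edgeR unadjusted p was 0.00539 and the adjusted p = 0.995. By an exact two-sided permutation test p = 0.1, and 3 libraries against 3 cannot reach a smaller one. Within same-numbered libraries Setd5sh stood at 224%, 153% and 163% of control. Leaving out control replicate 1 gave a log2 fold change of 0.65 and leaving out control replicate 3 gave 0.90, the ends of the range over single libraries.

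Cntn2 (ENSMUSG00000053024, chromosome 1, from 132509427 to 132543256, minus strand) stood at 2.40, 1.49 and 2.36 FPKM in Setd5sh replicates 1, 2 and 3, against 1.00, 1.13 and 1.18 FPKM in control replicates 1, 2 and 3. The groups did not overlap, and Setd5sh replicate 2 was the Setd5sh library nearest to control. The mean was 2.08 ± 0.514 FPKM in Setd5sh and 1.10 ± 0.0929 FPKM in control libraries (SD, n = 3 each), a ratio of 189%, and an exact two-sided permutation test gave p = 0.1. The log2 fold change was 0.91 (SE 0.24), with unadjusted p 0.00548 and adjusted p = 0.995 in edgeR. Within same-numbered libraries Setd5sh stood at 240%, 132% and 200% of control. Some young neuron markers were also higher in Setd5sh libraries and others were not. The summed FPKM of 8 such markers, 5 of which reached a mean of 1 FPKM, was 80.3, 47.8 and 82.7 in Setd5sh replicates 1, 2 and 3, against 43.1, 30.3 and 39.9 in control replicates 1, 2 and 3. Every Setd5sh sum lay above every control sum, through Tubb3, the neuronal beta-tubulin gene, which made up 63.9% to 66.7% of the sum in Setd5sh and 44.1% to 65.4% in control libraries. Tubb3 stood at 53.5, 30.5 and 55.0 FPKM in Setd5sh replicates 1, 2 and 3, against 19.0, 17.3 and 26.1 FPKM in control replicates 1, 2 and 3. Without Tubb3 the sum was 26.8, 17.3 and 27.7 FPKM in Setd5sh replicates 1, 2 and 3, against 24.1, 12.97 and 13.8 FPKM in control replicates 1, 2 and 3, and the groups overlapped. Of the 8 markers, 2 did not overlap between the groups, Tubb3 and Ina, both with Setd5sh above control. Among all genes with a mean of at least 1 FPKM, 3.07% had Setd5sh above and 2.14% Setd5sh below control. Ina averaged 7.54 FPKM in Setd5sh and 4.13 FPKM in control libraries. Nhlh1 averaged 4.65 FPKM in Setd5sh and 2.45 FPKM in control libraries, with Setd5sh replicate 2 below control replicate 1. The RNA-binding protein gene Elavl4 averaged 4.93 FPKM in Setd5sh and 4.80 FPKM in control libraries, Map2 0.86 and 0.89 FPKM, and Elavl3 4.75 and 3.58 FPKM, each with control replicate 1 as its highest library. Stmn2 and Dcx averaged 0.82 and 0.36 FPKM in Setd5sh and 0.81 and 0.30 FPKM in control libraries. The part of neuron content, or of the progenitor marker sum given above, in the differences of Cntn2, Draxin and Slit3 was not tested. In these bulk samples a change in the number of cells of a type and a change in RNA per cell cannot be told apart.

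**Figure D4:**
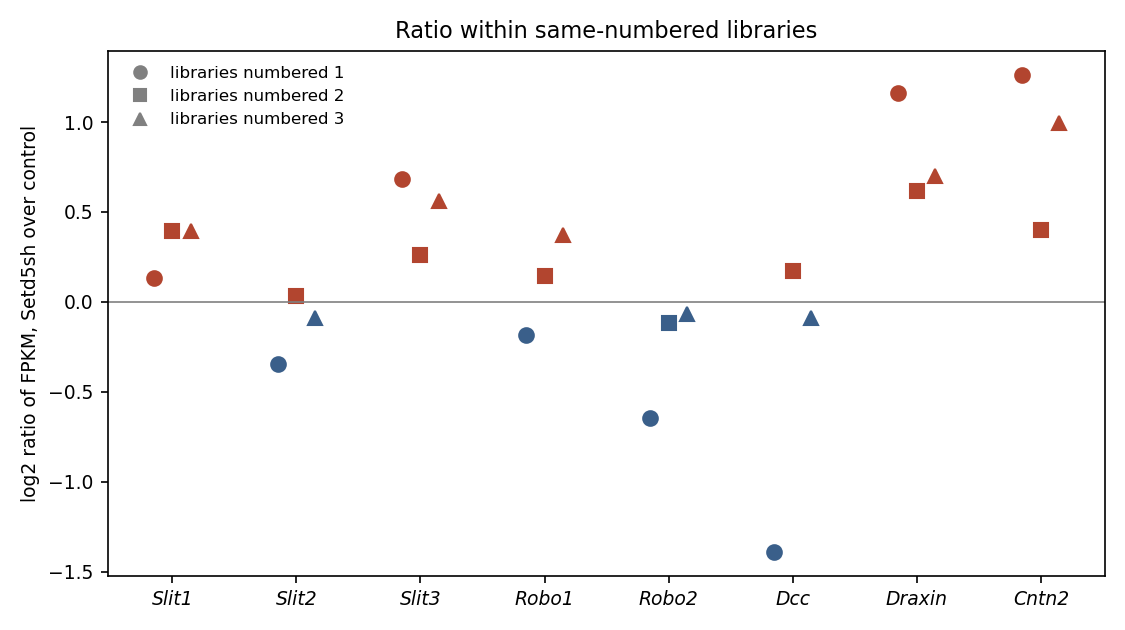
Log2 ratio of Setd5sh over control, of unrounded FPKM (vertical axis), within libraries of the same replicate number for 8 members (Robo3, with 0 to 5 counts, is left out). Slit1, Slit3, Draxin and Cntn2 are above 0 in all 3 pairs and Robo2 below 0 in all 3, and pair 1 is the lowest point of Slit1, Slit2, Robo1, Robo2 and Dcc.

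Slit1, Slit3, Draxin and Cntn2 were higher in Setd5sh in all 3 same-numbered pairs, where 12.8% of the genes tested were. Robo2 was lower in all 3, where 12.1% were, and so was Robo3, which was not tested and whose 0 to 5 counts give that order no weight. Over the filterByExpr genes the shares were 11.5% and 14.7%. In centred log2 CPM (counts scaled by library size) over the 6 libraries, Cntn2 and Slit3 were nearest to each other among the 6 members tested, with a root mean square difference of 0.228. Draxin was nearest to Cntn2 at 0.264, and Slit1 and Robo2 were nearest to each other at 0.345. Among all 12199 genes the 2 nearest profiles to Cntn2 were those of Ina, a neuronal intermediate filament gene that is also one of the 8 young neuron markers, at 0.101 and Nxph4 at 0.130. Draxin was nearest to Vtn, which encodes vitronectin, at 0.108 and to Cyp26b1, which encodes a retinoic acid-degrading enzyme, at 0.115. Slit1 was nearest to Pou3f4, a neural POU factor gene, at 0.038 and Map1b, a microtubule-associated protein gene, at 0.097. Slit3 was nearest to Tox2 at 0.055 and Mid1 at 0.068, Robo1 to Cep83os at 0.029 and Pip5k1b at 0.061, and Robo2 to Syne2 at 0.044 and Usf3 at 0.052. These distances are descriptions over 6 libraries, with no test.

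Other genes of midline guidance were taken from 5 lists of 70 genes, of which 51 met the FPKM minimum. None was called in either direction in edgeR, and none had an unadjusted p under 0.05. Log2 fold changes were above 0 in 26 of the 51, or 51.0%, beside 42.6% of all genes tested, whose median was -0.04. The netrin list had a median of 0.11 over 5 of 11 genes. Ntn1, the netrin of the floor plate, averaged 38.7 ± 4.46 FPKM in Setd5sh and 31.6 ± 2.77 FPKM in control libraries (SD, n = 3 each), a log2 fold change of 0.28 (SE 0.15). This netrin was thus far above its receptor gene Dcc in FPKM. The other netrin receptor genes Neo1 and Unc5a averaged 25.9 and 30.6 FPKM in Setd5sh and 23.9 and 23.9 FPKM in control libraries, with log2 fold changes of 0.11 (SE 0.14) and 0.34 (SE 0.23). Floor plate markers, led by Foxa2, summed to 43.4 to 47.5 FPKM in Setd5sh and 36.3 to 46.1 FPKM in control libraries.

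Over 24 of 25 cofactors and effectors of Slit and Robo the median was -0.03. Nell2, a secreted ligand of Robo3, stood at 3.74, 2.14 and 3.23 FPKM in Setd5sh replicates 1, 2 and 3, against 2.63, 1.58 and 1.72 FPKM in control replicates 1, 2 and 3, a log2 fold change of 0.60 (SE 0.31, edgeR adjusted p = 0.995). The groups overlapped through Setd5sh replicate 2. The adaptor gene Nck1 had -0.37 (SE 0.29) and the actin regulator Cap2 -0.34 (SE 0.25). Hedgehog and semaphorin genes had a median of 0.04 over 10 of 12, with Nrp2 at 0.25 (SE 0.18), Plxna1 at 0.19 (SE 0.14) and Plxna3 at -0.23 (SE 0.18), all 3 of them semaphorin receptor genes. Wnt and planar polarity genes had a median of 0.07 over 9 of 11, with Celsr3 at 0.43 (SE 0.33), Celsr1 at 0.22 (SE 0.18) and Prickle1 at 0.18 (SE 0.17). Among the contactins and L1 family genes other than Cntn2, 3 of 11 met the minimum and all 3 were below 0: Nrcam at -0.33 (SE 0.42), Ncam1 at -0.11 (SE 0.18) and Nfasc at -0.11 (SE 0.20). The contactin Cntn1, a relative of Cntn2, averaged 0.033 FPKM in Setd5sh and 0.073 FPKM in control libraries. Cntn3, another contactin, went the other way, with 0.143 and 0.103 FPKM in that order. Both were far under the FPKM minimum and were not tested with the lists. Their groups overlapped, those of Cntn1 only at 0.04 FPKM.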

How the data were processed

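The authors deposited 1 table of 55400 genes that holds raw counts and FPKM of the 6 libraries beside each gene's exonic length. Per the submitters' processing notes the build was mm10 and the tools included HTSeq, HISAT2, DESeq2 and SAMtools, with no role or version. No source used here says whether counting used strand. The deposited FPKM values equal counts scaled by exonic length and column total within 0.005. Symbols and positions came from GENCODE M21, which matched 99.5% of identifiers. In it, exons of the 9 members overlap no exon of another gene.

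Counts were tested with edgeR's quasi-likelihood test (TMM scaling, mean FPKM of at least 1, Benjamini-Hochberg adjustment, threshold 0.05, two-sided). Members under that minimum came from the same test with filterByExpr. Fold changes are Setd5sh minus control. Alternatives used DESeq2, limma, other scalings and filters, and fits without each library. The edgeR step was tested on simulated counts. Versions were edgeR 4.0.16, DESeq2 1.42.0 and limma 3.58.1 in R 4.3.3, and matplotlib 3.10.9.

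Members and lists were chosen with earlier results of these data known. Named from each list were the 3 tested genes with the smallest p, and for each tested member the 2 genes with the nearest profile. Other genes were named as markers or after their values were seen.

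The groups share replicate numbers 1, 2 and 3. Deviations from group means correlated at 0.185, 0.69 and 0.127 between same-numbered libraries (TMM-scaled log2 CPM). Setd5sh replicate 3 with control replicate 1 gave 0.191, and the other different-numbered values ran from -0.523 to -0.036. By these values only the libraries numbered 2 clearly pair. For the numbers 1 and 3 the pairing is not established, and the labels do not state one. The p-values, intervals and ranks given are nevertheless from the fit without the block, and the blocked fit is an alternative. Without TMM scaling the libraries numbered 3 gave 0.073, and Setd5sh replicate 3 with control replicate 1 gave 0.259. No pair of libraries agreed within sampling noise (chi-square per degree of freedom at least 8.49). Pairs with control replicate 1 had values of 139 to 234, and pairs among the other libraries had at most 72.2.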

Additional observations from a re-analysis of the deposited data

How the results depend on the processing

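No member passed the adjusted threshold under other scalings, tools, filters or fits without 1 library, and the replicate block alone changed no call, with 0 genes called as without it. Draxin, Cntn2 and Slit3 kept a positive log2 fold change in all 21 alternatives, from 0.60 to 0.95, 0.54 to 1.14 and 0.40 to 0.74. Their lowest adjusted p values were 0.0389, 0.061 and 0.423. Draxin passed at 0.0389 in the replicate block fit that drops pair 3. The 3 fits without a pair were added after the data were seen and leave 4 libraries and 1 residual degree of freedom. There 1 member was called, and 436 genes in all, 11 higher and 425 lower. Without pair 1 the block fit called 70 genes and without pair 2 it called 0. DESeq2 with the replicate block, also added later, called 2 genes and no member, and edgeR with no filter on low counts called 73, again with no member among them.

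Signs turned in 5 members, none of which had an adjusted p under 0.05 in any fit. Slit1 was at -0.0694 without Setd5sh replicate 1. Slit2 was at 0.045 without control replicate 1 and at 0.0946 with the replicate block and GC and length trends removed. Robo1 was at -0.000208 without Setd5sh replicate 3 and at -0.0123 with the block without pair 3. Robo2 was at 0.109 without control replicate 1, and Dcc at 0.123 without control replicate 1 and at 0.0794 with the block without pair 1. The cause was not tested. Over fits without single libraries the log2 fold changes ran from -0.0694 to 0.729 for Slit1, -0.254 to 0.045 for Slit2, -0.000208 to 0.213 for Robo1, -0.576 to 0.109 for Robo2 and -0.899 to 0.123 for Dcc. Slit2 made up 6.9% of the summed Slit level in Setd5sh and 9.47% in control libraries per longest transcript. Robo3 had too few counts for any fit, and Dcc rests on 63 counts in Setd5sh and 118 in control libraries.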
